A study of Chlorocebus sabaeus with 6 samples.

Results

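The genes described here are the epidermal growth factor (EGF) receptor family and the ligands that bind it. They were taken by accession, as 3 receptors (EGFR, ERBB2 and ERBB3) and 5 ligands (HBEGF, AREG, EREG, TGFA and BTC), and 7 of these 8 listed genes had a row among the 51520 rows of the deposited table. No row carried the accession listed for AREG, so amphiregulin was not analysed here. The samples were 6 RNA-seq libraries of COS-1, a line of African green monkey (Chlorocebus sabaeus) kidney cells transformed with simian virus 40 sequences. The control group was 3 libraries of cells labelled as having no treatment, and the other group was 3 libraries of lentivirus-treated cells. Both groups had been kept without serum for 14 h and then given EGF at 2 ng/ml for 90 min, so every value below is a level after EGF, and the effect of EGF itself cannot be read from them. The series title names SHOC2, a scaffold of the ERK1/2 cascade downstream of these receptors. What the virus carried is not in the labels, and the control cells received none, so the virus and its cargo cannot be told apart.

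The EGF receptor and its relatives are receptor tyrosine kinases that work in pairs at the cell surface. EGFR binds EGF and the ligands listed here, ERBB2 has no known soluble ligand and serves as a partner, and ERBB3 binds neuregulins, has little kinase activity of its own and couples strongly to PI3 kinase once its partner phosphorylates it. The ligands are made as membrane-anchored precursors and are shed by proteases. In many epithelial and fibroblast cultures, active ERK raises the transcripts of several of these ligands, which closes a loop from receptor to ligand.

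Levels are FPKM, the number of fragments per kilobase of a feature after scaling to the size of the library, so different genes can be set side by side. The columns summed to between 2094230 and 2206925 FPKM. The file gives no read counts, so the depth behind each value is unknown. Differences were tested with limma on log2(FPKM + 1) over the 28434 rows with a mean of at least 1 FPKM, with Benjamini-Hochberg adjustment over all of them and a call at an adjusted p under 0.05. This scale understates the change of low genes. Whether replicates of a group were grown separately is not labelled, so the p-values speak only of the spread among these 6 libraries, and that spread may be technical. The table holds no gene symbols, and 0 of its IDs could be found in the gene table that RefSeq gives for assembly mChlSab1.0.hap1. The markers of the cell line and the other genes of ERBB signalling were therefore not analysed here.

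All 3 receptors and HBEGF were found well above 1 FPKM in every library, ERBB2 being the most abundant, whereas EREG, TGFA and BTC lay around 1 FPKM. Among the 5 genes that passed the filter, 0 were called by limma with Benjamini-Hochberg adjustment, beside 6.48% of all tested rows, and 1, ERBB3, had an unadjusted limma p under 0.05, beside 24.2% of all tested rows. ERBB3 was 1.36-fold lower in the lentivirus-treated libraries and EGFR was 1.09-fold higher. These were the 2 of the 7 genes whose groups did not overlap, a pattern shown by 31.6% of all tested rows. EREG and BTC had means under 1 FPKM and were not tested by limma.

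**Figure D1:**
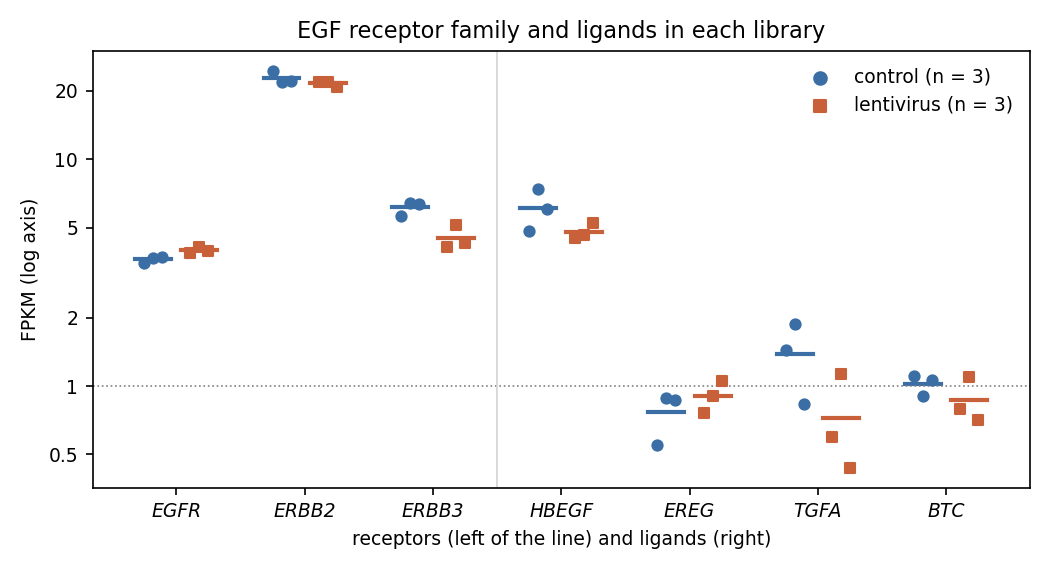
FPKM of each gene in each of the 6 libraries on a log axis, with control libraries as circles, lentivirus-treated libraries as squares, the mean of 3 libraries as a bar and the 1 FPKM filter as a dotted line. ERBB2 lies near 20 FPKM in every library, the ERBB3 and EGFR groups do not overlap, and EREG, TGFA and BTC scatter around the dotted line.

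Among the receptors, ERBB3 differed most. Its row (ENSP00000267101_1, chromosome 11, 52021221 to 52042362 as deposited) held 5.62, 6.43 and 6.37 FPKM in the control libraries and 4.12, 5.13 and 4.28 FPKM in the lentivirus-treated ones. The highest lentivirus-treated library stood below the lowest control library. The means were 6.14 ± 0.453 and 4.51 ± 0.540 FPKM (SD, n = 3), a difference of -0.38 on the log2(FPKM + 1) scale with a 95% interval of -0.63 to -0.12. The limma p was 0.0115 before and 0.0911 after Benjamini-Hochberg adjustment, so ERBB3 was not called. When rows whose positions overlap were summed to loci, ERBB3 kept the same values, since its row overlaps no other. Among those 16073 loci, of which 19.5% were called, its limma adjusted p was 0.0376 and it was called. Over all 16 alternatives its limma adjusted p ran from 0.0376 to 0.231, and ERBB3 was lower in the lentivirus-treated group in each of them. Since its groups do not overlap, only the 3 scaling alternatives could have reversed this direction.

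EGFR, the receptor for the EGF given to these cells, lay on the other side. Its row (ENSP00000275493_1, chromosome 21, 3666341 to 3853028) held 3.49, 3.68 and 3.70 FPKM in the control libraries and 3.86, 4.11 and 3.92 FPKM in the lentivirus-treated ones. All lentivirus-treated libraries exceeded all control libraries, by a small margin. The means were 3.63 ± 0.115 and 3.96 ± 0.130 FPKM (SD, n = 3), a difference of 0.10 log2 with a 95% interval of -0.07 to 0.28 and a limma adjusted p of 0.440. EGFR was steady for its level: its within-group SD was 0.037 log2, against a median of 0.19 log2 for the 3634 tested rows of like level (within 0.5 log2), and 1.60% of those rows had a smaller SD. limma draws each row's variance towards that of rows of like level, which gave a SE of 0.070 log2 where the 6 EGFR values alone give 0.030.

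ERBB2, the partner without a soluble ligand, was the most abundant of the 7 genes in both groups. Its row (ENSP00000269571_1, chromosome 16, 66436083 to 66464744) held 24.6, 21.9 and 22.2 FPKM in the control libraries and 22.0, 21.8 and 20.9 FPKM in the lentivirus-treated ones. The groups overlapped, and control replicate 1 stood above the rest. The means of 22.9 ± 1.47 and 21.6 ± 0.613 FPKM (SD, n = 3) differed by -0.08 log2, with a 95% interval of -0.23 to 0.07 and a limma adjusted p of 0.482. Without control replicate 1 the difference was -0.03 log2. At this level 63.3% of tested rows had a lower mean, against 23.0% for EGFR and 29.5% for ERBB3.

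**Figure D2:**
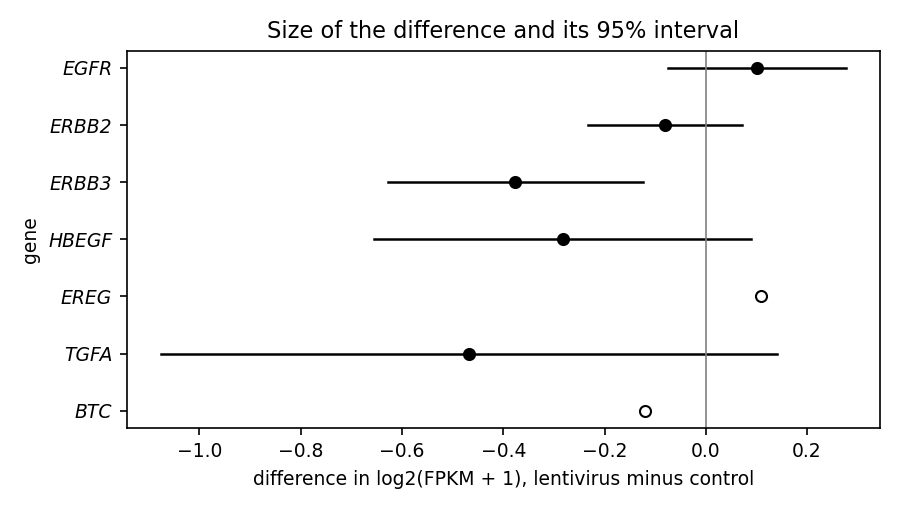
Difference in log2(FPKM + 1) between the lentivirus-treated and control libraries for each gene, with the limma 95% interval as a line; open circles mark EREG and BTC, which were under the filter and have no interval. The interval of ERBB3 lies wholly below 0 before adjustment over all rows, and those of EGFR, ERBB2, HBEGF and TGFA include 0.

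Set against each other within a library, ERBB3 was a smaller part of the receptor transcripts in the lentivirus-treated group. The ratio of ERBB3 to EGFR was 1.61, 1.75 and 1.72 in the control libraries and 1.07, 1.25 and 1.09 in the lentivirus-treated ones. The means were 1.69 ± 0.0737 and 1.14 ± 0.0976 (SD, n = 3). The groups did not overlap, which had to follow since ERBB3 and EGFR each separated, in opposite directions. The ratio of ERBB2 to ERBB3 was 4.37, 3.41 and 3.48 in control and 5.33, 4.26 and 4.87 in lentivirus-treated libraries. Here control replicate 1 lay among the lentivirus-treated libraries, so these groups overlapped. The ratio of ERBB2 to EGFR was 7.03, 5.95 and 5.99 in control and 5.70, 5.32 and 5.32 in lentivirus-treated libraries. Those groups did not overlap, although the ERBB2 levels did. ERBB3 made up 18.8% ± 1.88 of the FPKM of the 3 receptors in control and 15.0% ± 1.39 in lentivirus-treated libraries, and EGFR 11.1% ± 0.646 and 13.2% ± 0.311. ERBB2 made up 70.0% ± 2.52 and 71.8% ± 1.55. These ratios and shares combine genes already described and were not tested.

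**Figure D3:**
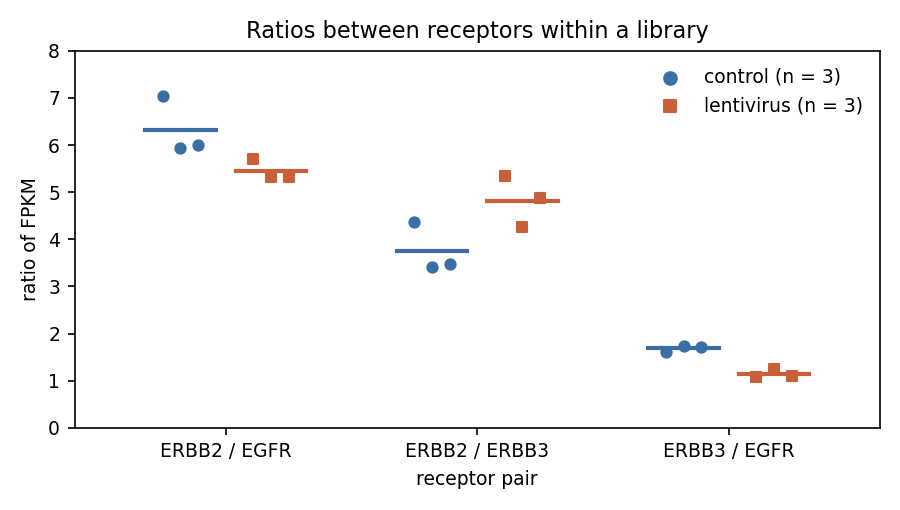
Ratio of FPKM between pairs of receptors in each library, with control libraries as circles, lentivirus-treated libraries as squares and group means as bars. The ERBB3 to EGFR ratio lies between 1.61 and 1.75 in control and between 1.07 and 1.25 in lentivirus-treated libraries. The groups do not overlap for ERBB2 to EGFR either, whereas they overlap for ERBB2 to ERBB3.

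HBEGF, heparin-binding EGF-like growth factor, was the most abundant ligand analysed. Its row (ENSP00000230990_1, chromosome 23, 42983508 to 42994811) held 4.85, 7.38 and 6.06 FPKM in the control libraries and 4.49, 4.64 and 5.21 FPKM in the lentivirus-treated ones. The control libraries spread widely, and the lowest of them lay inside the range of the other group. The means were 6.10 ± 1.27 and 4.78 ± 0.379 FPKM (SD, n = 3), a difference of -0.28 log2 with a 95% interval of -0.65 to 0.09 and a limma adjusted p of 0.315. Without control replicate 2, the highest library, the difference was -0.15 log2.

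HBEGF was the only one of the 7 genes whose row shared its positions with others. A pair of monkey transcript rows, JK117504.1 and JK108249.1, begin 11 bases apart and both end at 42995006. JK117504.1 held 0.00800, 0.666 and 0.195 FPKM in control and 3.20, 2.15 and 0.00653 FPKM in lentivirus-treated libraries. JK108249.1 held 2.48, 0.640 and 1.56 FPKM in control and 0.00106, 0.00204 and 0.734 FPKM in lentivirus-treated libraries. Where one of the pair was high the other was low, except in control replicate 2, where they were alike. How fragments that fit more than 1 row were shared out is not stated, so the level of each of the 3 rows is uncertain. The HBEGF row held between 58.4% and 87.6% of the sum of all 3.

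That sum was 7.34, 8.69 and 7.81 FPKM in control and 7.69, 6.79 and 5.95 FPKM in lentivirus-treated libraries, which overlap. The means were 7.95 ± 0.683 and 6.81 ± 0.870 FPKM (SD, n = 3). The difference was -0.20 log2 with a 95% interval of -0.45 to 0.05, and the limma adjusted p among loci was 0.225. The direction was that of the HBEGF row alone.

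**Figure D4:**
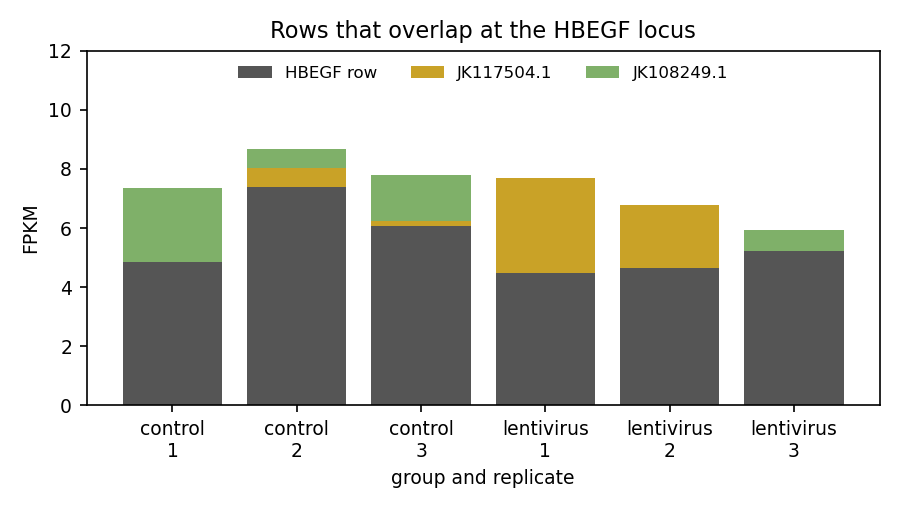
Stacked FPKM of the 3 rows that overlap at the HBEGF locus in each library, the HBEGF row at the base. The stack is between 5.95 and 8.69 FPKM high, and the upper part belongs mainly to JK108249.1 in control replicates 1 and 3 and lentivirus replicate 3, and to JK117504.1 in lentivirus replicates 1 and 2.

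TGFA, transforming growth factor alpha, had the largest difference of the 5 tested genes on the log2(FPKM + 1) scale and also the largest spread. ERBB3 took its place at a pseudocount of 5 (-0.23 log2 against -0.16 for TGFA) and on the TPM scale (-0.30 against -0.29). TPM values are smaller than these FPKM while the pseudocount stayed at 1, so the pseudocount weighed more there. ERBB3 also ranked first without control replicate 2 (-0.35 against -0.32), and without lentivirus replicate 3 the genes were level at -0.35. The TGFA row (ENSP00000295400_1, chromosome 14, 36545874 to 36648237) held 1.44, 1.88 and 0.836 FPKM in the control libraries and 0.598, 1.13 and 0.436 FPKM in the lentivirus-treated ones. Lentivirus replicate 2 stood above control replicate 3, so the groups overlapped. The means were 1.39 ± 0.525 and 0.722 ± 0.364 FPKM (SD, n = 3), a 1.92-fold lower mean after lentivirus. The difference was -0.47 log2 with a 95% interval of -1.08 to 0.14 and a limma adjusted p of 0.311. Its within-group SD was 0.31 log2, against a median of 0.21 log2 for the 2013 tested rows of like level. TGFA had a mean over all libraries of 1.05 FPKM, just above the filter, and 1.04% of tested rows had a lower mean. Those rows of like level therefore lay mostly above TGFA, which limits the comparison of SDs. The interval reaches from a fall of more than 1 log2 to a small rise, so these libraries do not fix the size of any TGFA change.

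TGFA was compared with other rows because its difference ranked first on that scale. The tested lone rows of at least 5 FPKM whose 6 values followed TGFA most closely were JK094959.1 (chromosome 16, 42163537 to 42163825), with Pearson's r = 0.992, and ENSP00000448536 (chromosome 11, 100538646 to 100575739), with r = 0.990. They were taken from 6497 rows over 6 libraries, and 56 rows had r above 0.9. Neither was called (limma adjusted p = 0.322 and 0.273). The table does not pair either with a gene symbol.

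EREG (epiregulin) and BTC (betacellulin), ligands that bind EGFR and also ERBB4, were the lowest by mean over all libraries. EREG (ENSP00000244869_1, chromosome 7, 22901912 to 22920675) held 0.551, 0.883 and 0.872 FPKM in control and 0.758, 0.906 and 1.05 FPKM in lentivirus-treated libraries. The groups overlapped, with means of 0.769 ± 0.189 and 0.904 ± 0.146 FPKM (SD, n = 3) and a two-sided exact permutation p of 0.4. BTC (ENSP00000379092_1, chromosome 7, 23285063 to 23332644) held 1.11, 0.901 and 1.07 FPKM in control and 0.791, 1.10 and 0.711 FPKM in lentivirus-treated libraries. These groups overlapped too, with means of 1.02 ± 0.109 and 0.868 ± 0.206 FPKM (SD, n = 3) and a two-sided exact permutation p of 0.3. With 3 against 3 libraries this test cannot go below 0.1. Without read counts the counting error at these low levels is unknown.

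EREG and BTC lie 364 kb apart in the deposited positions with 1 row between them, ENSP00000370227 (22980416 to 22987822). In the RefSeq gene table, AREG is the 1 protein-coding gene between EREG and BTC. The table does not give a symbol for the row in between, which is not named here. It held 0.943, 0.965 and 0.759 FPKM in control and 0.852, 0.607 and 0.767 FPKM in lentivirus-treated libraries. Its groups overlapped, and all 3 rows of this stretch lay near or below 1 FPKM in every library.

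Together the 4 ligands summed to 7.95, 11.0 and 8.83 FPKM in control and to 6.63, 7.78 and 7.40 FPKM in lentivirus-treated libraries. Each of the 4 ligands alone overlapped between the groups. Over all tested rows, which leave out EREG and BTC, 31.6% did not overlap, and 4 genes are too few to set against that share. The control ligand sums all exceeded the lentivirus-treated ones, by 0.168 FPKM at the nearest point. HBEGF made up 65.5% ± 3.95 of that sum in control and 65.9% ± 5.55 in lentivirus-treated libraries. TGFA made up 14.9% ± 4.72 and 9.81% ± 4.38, and EREG 8.27% ± 1.49 and 12.4% ± 1.53. The EREG shares did not overlap (at most 9.87% in control and at least 11.4% after lentivirus), although the EREG levels did. That separation depended on taking HBEGF from its own row. With all 3 rows of the HBEGF locus in the sum, EREG made up 5.28% to 8.24% in control and 7.70% to 12.9% in lentivirus-treated libraries, which overlap. The ligand sums then ran from 10.4 to 12.4 FPKM in control and from 8.14 to 9.93 FPKM in lentivirus-treated libraries. This alternative was added after the values had been seen, and neither sums nor shares were tested.

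By mean FPKM the order in control was ERBB2, ERBB3, HBEGF, EGFR, TGFA, BTC and EREG. ERBB3 and HBEGF overlapped in range, as did TGFA and BTC, while ERBB2 and EGFR each stood clear of their neighbours. EREG lay below BTC in every control library but overlapped TGFA. In the lentivirus-treated libraries the order was ERBB2, HBEGF, ERBB3, EGFR, EREG, BTC and TGFA. HBEGF and ERBB3 overlapped again, and EREG, BTC and TGFA could not be ordered, since each range overlapped the next. EGFR stood below ERBB3 and above TGFA in both groups. These orders take HBEGF from its own row, and its overlap with ERBB3 depended on that. The summed HBEGF locus held at least 7.34 FPKM in control, where ERBB3 reached at most 6.43 FPKM. In the lentivirus-treated libraries the summed locus held at least 5.95 FPKM, where ERBB3 reached at most 5.13 FPKM.

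Rows within 500 kb of these genes were looked at for differences shared by neighbours. Calls are set beside the 6.48% called and the 24.2% at an unadjusted limma p under 0.05 over all tested rows. Near ERBB3, 97 other rows were tested, of which 2 were called higher, 3 lower and 17 had an unadjusted p under 0.05, and their median difference was 0.02 log2, against -0.38 log2 for ERBB3. Near EGFR, 12 other rows were tested, of which 1 was called higher, 0 lower and 3 had an unadjusted p under 0.05, and the median was 0.16 log2, against 0.10 log2 for EGFR. Near HBEGF, 57 were tested, of which 1 was called higher, 0 lower and 10 had an unadjusted p under 0.05, and the median was 0.16 log2, opposite in sign to HBEGF. Near TGFA, 29 were tested, of which 1 was called higher, 1 lower and 7 had an unadjusted p under 0.05, and the median was 0.05 log2. Near ERBB2, 46 were tested, of which 0 were called by limma and 5 had an unadjusted p under 0.05, and the median was -0.04 log2. Near EREG and BTC, whose windows share rows, 5 and 2 were tested, of which 0 were called by limma and 1 and 0 had an unadjusted p under 0.05. Over all tested rows the median difference was -0.00097 log2.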

How the data were processed

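The authors deposited 1 table of FPKM values with 1 column per library. The tools listed are Cufflinks 2.1.1, Cuffdiff, TopHat2 2.0.10, Bowtie2 2.1.0.0 and CASAVA, per the submitters' processing notes. Their roles, the genome build and any scaling between libraries are not stated there. Positions are printed as deposited. Columns were assigned to samples by title. Gene names of the 7 rows came with the list of accessions that chose them. The genes and lists were chosen with earlier results of these data known.

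limma 3.58.1 (lmFit, eBayes with trend) in R 4.3.3 was run on log2(FPKM + 1) for rows whose mean in the 6 libraries reached 1 FPKM, with no covariate beside group. The p-values are two-sided and were adjusted by Benjamini-Hochberg over all 28434 tested rows. Loci are rows joined by overlapping positions (20566 in all). The 2 genes under the filter were given exact permutation tests. Every gene found was named, plus the 2 rows most like the gene with the largest difference. The fit was tested on simulated data with independent normal noise in each row, unlike overlapping rows that may share reads. The outcome of that test is not given here. Alternatives covered the pseudocount, filter, scaling, trend, replicate block, summed loci and each library left out. No sequence was available to print, and the planned list of other ERBB signalling genes was not run.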

Additional observations from a re-analysis of the deposited data

How the results depend on the processing

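Across the alternatives of the test, all planned, 0 of the 5 genes that passed the filter reversed direction. For ERBB3 and EGFR, whose groups do not overlap, only the 3 scaling alternatives could have done so. EREG and BTC entered only the fit with no filter, which leaves their differences unchanged, so their direction was not put to a test. The count of called genes among the 7 was 0 by limma in all but 1 setting. It was 1 (ERBB3) when overlapping rows were summed to loci; that fit held 16073 tests in place of 28434, and with the same ERBB3 values its unadjusted limma p was 0.00617 in place of 0.0115, so the number of tests was not all that moved. Over all rows, 1842 calls became 1220 with no filter, 3134 with overlapping rows summed, and 48 to 118 with any 1 library omitted. A fit with replicate number as block gave 0 calls by limma, with 6084 rows at an unadjusted p under 0.05 against 6890 without the block. In that fit ERBB3 and TGFA, 2 of the 5 tested genes, had an unadjusted limma p under 0.05. The deviations of same-numbered libraries correlated at 0.13, -0.03 and 0.0028, so the numbers were not taken as pairs. Leaving out 1 library, the ERBB3 difference ran from -0.45 to -0.33 log2, that of HBEGF from -0.41 to -0.15, that of TGFA from -0.64 to -0.32, that of ERBB2 from -0.11 to -0.03 and that of EGFR from 0.08 to 0.12. The TGFA difference was -0.88 log2 at a pseudocount of 0.1 and -0.16 at 5. Median ratio, quantile and TPM scaling moved the median of all rows to at most 0.02 log2. Median ratio and quantile scaling left the TGFA difference at -0.46 and -0.47 log2. On the TPM scale the TGFA difference was -0.29 in place of -0.47 log2 and that of ERBB3 -0.30 in place of -0.38. TPM columns sum to less than these FPKM columns while the pseudocount stayed at 1, so the pseudocount weighed more there. Since the file holds no counts, how much of the spread is counting error is unknown.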
